A study of Mus musculus with 6 samples.

Results

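The mitosis genes are 47 genes that drive or build the division of a cell, from the cyclins that start mitosis to the proteins that separate the daughter cells. They were taken by gene symbol, and every probe set whose gene symbol was one of the 47 was taken on all 6 arrays. This gave 114 probe sets of the 45101 on the array, and 47 of the 18194 genes with a name. The platform annotation named 111 of the 114. The remaining 3, for Ccnb1, Nusap1 and Plk1, were named by the deposited annotation, and the Ccnb1 probe set used here is one of these. Other probe sets for Ccnb1 carry several gene names and were not used.

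The samples were SYF cells, mouse embryonic fibroblasts without the tyrosine kinases Src, Yes and Fyn, stably transfected with a Src mutant and grown under hygromycin B. Both mutants carry Y527F, which takes away the tail tyrosine that holds Src inactive when phosphorylated. One line carried R388A/Y527F, in which a catalytic arginine is replaced and imidazole can restore kinase activity. The other line carried D386N/Y527F, in which the catalytic aspartate is replaced and imidazole does not restore it. All cells went without serum overnight, and were then taken at 0 h or after 1 h or 12 h in 5 mM imidazole. The groups were R388A/Y527F at 0 h, 1 h and 12 h, and D386N/Y527F at 0 h, 1 h and 12 h, with 1 array each, so no group has a replicate. No array held cells kept for 12 h without imidazole, so time after serum withdrawal and imidazole cannot be told apart. Whether a line was 1 clone or a pool is not given in the sources used here, and the R388A/Y527F and D386N/Y527F lines are separate populations of cells.

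In outline, mitosis begins when cyclin B and its kinase Cdk1 become active. Aurora and Polo-like kinases then help to build the spindle, kinetochores attach the chromosomes to it, and a checkpoint holds back the anaphase-promoting complex until every chromosome is attached. Many of these genes are transcribed together in G2 and mitosis. Known promoter elements are the cell cycle genes homology region (CHR), through which MuvB complexes also keep them low in resting cells, and the CCAAT box, which the factor NF-Y binds. In a bulk sample, fewer dividing cells and less RNA per dividing cell cannot be told apart.

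On every array the mean signal after trimming was 150.001, and 12208 to 12713 genes lay above the floor, a signal of 20.4, which is the 40th percentile of all signals. The ratio of 3' to 5' signal was 0.760 to 0.820 for Gapdh and 1.11 to 1.18 for actin. All 13 fibroblast markers were above the floor on all 6 arrays, with a summed signal of 29544 to 33063. Summed signals were 154 to 315 for 6 epithelial markers, 68.3 to 108 for 4 endothelial, 77.2 to 112.0 for 4 leukocyte, 57.3 to 240.4 for 4 muscle and 202 to 269 for 4 neural markers. Above the floor on all 6 arrays were 3, 1, 2, 0 and 4 of these markers, in the same order. The part of such cells in the results was not tested. The brighter Src probe set gave 66.9, 19.1 and 42.2 at 0, 1 and 12 h in R388A/Y527F, against 58.4, 72.7 and 67.9 in D386N/Y527F. The brightest Fyn probe set gave 185.3 to 238.4 and the brightest Yes1 probe set 180.6 to 219.4 over the 6 arrays, above the floor on each, although SYF cells lack these kinases. The labels do not say which parts of the Src, Yes1 and Fyn transcripts were lost or which parts these probe sets read, so they do not check the line.

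The promoters of 7 of the genes are shown first, to look for the elements through which this group is known to be transcribed together, which not all 7 hold. They are 5 genes that limma called lower in R388A/Y527F than in D386N/Y527F in the GCOS signal, a share of the 46 tested no larger than the 10.9% called lower among all genes, and the kinase genes Cdk1 and Plk1, called so in the second summary. Each stretch runs from 100 bases before to 50 bases after the annotated start site, 5′ to 3′ on the strand of the gene, and is from RefSeq on the build GRCm38.p6. Capitals mark TTTGAA (the CHR core), TTTAAA (a variant of it) and CCAAT, each on either strand.
Ccnb1, chr13:100786437-100786586, minus strand: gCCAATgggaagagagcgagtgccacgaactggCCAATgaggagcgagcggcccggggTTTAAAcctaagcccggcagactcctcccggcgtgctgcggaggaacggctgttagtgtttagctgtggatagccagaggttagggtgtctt
Ccnb2, chr9:70421505-70421654, minus strand: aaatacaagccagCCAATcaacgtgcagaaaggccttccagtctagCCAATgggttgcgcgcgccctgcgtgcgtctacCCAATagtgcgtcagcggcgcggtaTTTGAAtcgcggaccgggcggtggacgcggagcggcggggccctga
Cdk1, chr10:69352863-69353012, minus strand: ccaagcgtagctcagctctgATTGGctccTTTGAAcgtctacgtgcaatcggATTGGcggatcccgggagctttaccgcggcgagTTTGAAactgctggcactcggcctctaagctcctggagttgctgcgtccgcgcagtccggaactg
Plk1, chr7:122159335-122159484, plus strand: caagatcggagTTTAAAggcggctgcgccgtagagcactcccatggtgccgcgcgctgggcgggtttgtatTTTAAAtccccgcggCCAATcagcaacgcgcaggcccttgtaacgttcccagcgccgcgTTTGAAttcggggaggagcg
Nek2, chr1:191821373-191821522, plus strand: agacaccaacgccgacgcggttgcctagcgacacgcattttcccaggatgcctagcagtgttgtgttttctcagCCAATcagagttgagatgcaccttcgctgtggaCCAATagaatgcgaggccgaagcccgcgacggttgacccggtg
Bub1b, chr2:118598111-118598260, plus strand: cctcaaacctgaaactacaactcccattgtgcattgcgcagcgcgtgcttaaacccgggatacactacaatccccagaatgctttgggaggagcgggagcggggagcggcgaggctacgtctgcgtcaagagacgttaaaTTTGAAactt
Ube2c, chr2:164769829-164769978, plus strand: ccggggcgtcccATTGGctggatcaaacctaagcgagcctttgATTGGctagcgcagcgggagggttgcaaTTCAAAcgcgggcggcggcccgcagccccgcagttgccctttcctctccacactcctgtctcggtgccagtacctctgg

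In these stretches Ccnb2 and Cdk1 held both TTTGAA and CCAAT, Plk1 held all 3 motifs, and Ccnb1 held TTTAAA in place of TTTGAA. Ube2c held TTTGAA and CCAAT on the reverse strand, Bub1b held TTTGAA alone, and Nek2 held CCAAT alone. The search covered windows of 300 bases, from 250 before to 50 after the start, and found 42 windows for 39 of the 47 genes. The other 8 genes were Ccna2, Cdc25c, Foxm1, Aurkb, Incenp, Tpx2, Kif20a and Smc4. TTTGAA was in 32 of the 42 windows (76.2%), against 17.9% of all 32851 promoter windows in the RefSeq table. TTTAAA, which reads the same on both strands, was in 9 (21.4%), against 13.2% of all windows. CCAAT was in 34 (81.0%), against 37.4%, and at least 2 copies of it were in 23 (54.8%), against 11.7%. TTTGAA and CCAAT stood together in 29 of the 42 windows (69.0%), against 6.95% of all windows. None of the 3 motifs was in 4 windows (9.52%), against 45.7% of all windows. Matches of different motifs can share at most 1 base, at their ends. These shares describe letters in a window and do not show that a factor was bound.

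Positions were read from 1 window per gene, so that no site was counted in overlapping windows of a gene. Of 37 TTTGAA matches in the 39 mitosis genes, 27 (73.0%) lay within 50 bases of the start site, against 24.9% of 5639 matches over 27025 genes. The median position was 2 in the mitosis genes, where 0 is the start, against -124 over all genes. Of 70 CCAAT matches in the mitosis genes, 25 (35.7%) lay within 50 bases of the start, against 28.3% of 14787 over all genes, with medians of -67.5 and -91.

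**Figure D1:**
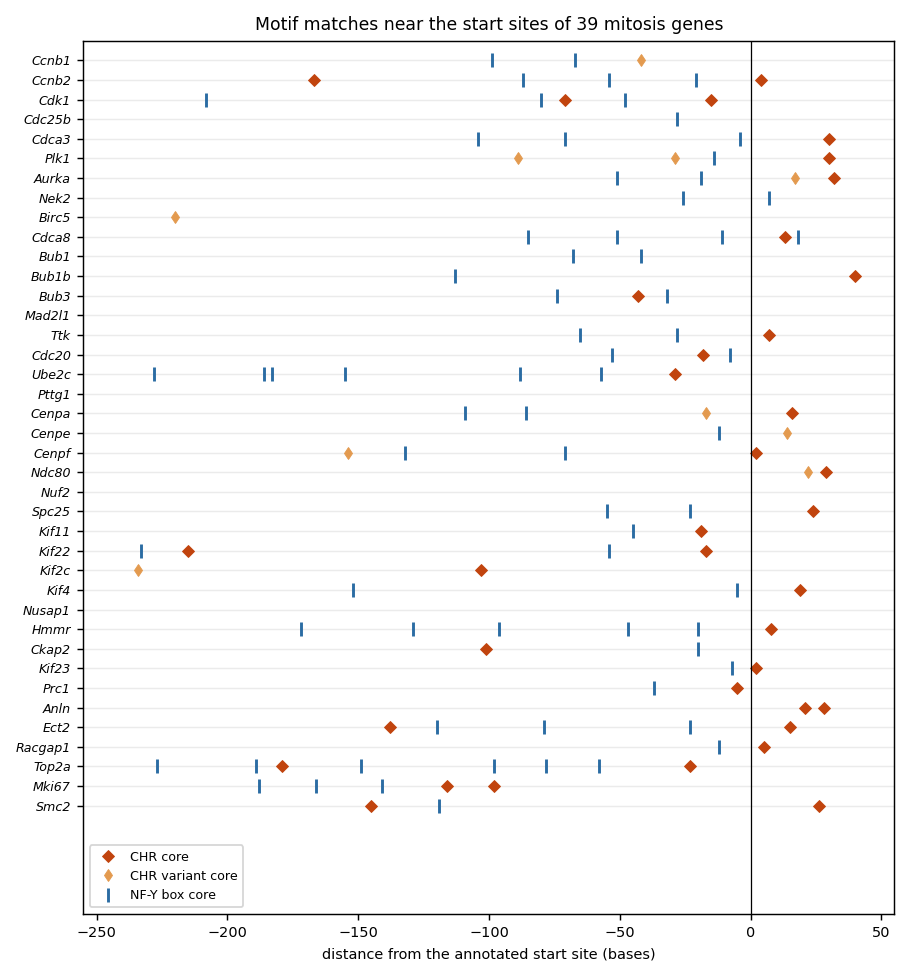
Positions of the motif matches in the promoter windows of 39 mitosis genes, 1 row per gene and 1 window per gene, ordered by role. The x axis is the distance in bases from the annotated start site (vertical line). Filled diamonds are the CHR core, thin diamonds its variant and ticks the NF-Y box core; most diamonds sit close to the start and most ticks upstream of it.

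Most of the mitosis genes were bright in these serum-starved cells. By the probe set chosen for each gene as given below, 45 of 47 were above the floor on all 6 arrays. By the same choice 35 of 47 were above a signal of 300 on all arrays, against 3524 of 18194 genes. By the brightest probe set of each gene, a choice that favours high signals, all 47 were above the floor on all 6 arrays. Their mean signals lay between 241 and 4312, with a median of 901. Of the 114 probe sets, 96 covering all 47 genes were above the floor on all 6 arrays and 10 probe sets of 9 genes were above it on none. Each gene was tested by 1 probe set, chosen by the specificity that its suffix denotes and then by brightness. That rule took the brightest probe set for 31 genes and a dimmer one for 16. For Cenpa it took one too dim to test, which left 46 genes in the fits. A second summary of the same arrays, whose method is not stated, and the brightest probe set of each gene were run beside the GCOS signal.

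The first question was whether the genes changed over 12 h in imidazole. Most had slightly lower signals at 12 h than at 0 h in both lines. In R388A/Y527F 35 of 46 members were lower, with a median log2 difference of -0.11, against 52.7% lower among all 13313 genes measured. In D386N/Y527F 38 of 46 were lower, with a median of -0.20, against 45.9% of 13239 genes. The median over all genes was -0.02 in R388A/Y527F and 0.03 in D386N/Y527F. With 1 array per group these differences have no replicate check.

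Bright genes vary less than dim ones, so the members were also set beside bright genes alone, a comparison added after the data were seen. Among the 35 members above a signal of 300 on all arrays, 30 were lower at 12 h in R388A/Y527F, against 44.2% of the 3524 genes that bright. In D386N/Y527F 33 of the 35 were lower, against 55.2% of these genes. The differences were small. Lower by at least 0.32 on the log2 scale, a step fixed for counting, were 6 of 46 members in R388A/Y527F, against 15.6% of all genes, and 3 of the 35 bright members, against 2.21% of bright genes. In D386N/Y527F the same step was passed by 10 of 46 members, against 11.3% of all genes, and by 8 of the 35 bright members, against 5.53% of bright genes.

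Both lines moved in the same direction for most members. Of 46, 32 were lower at 12 h in both lines, against 27.2% of 12492 genes and 29.3% of bright genes. In the second summary it was 36 of 45, against 35.1% of all genes and 43.4% of bright genes. In both summaries 29 members were lower in both lines. The counts that follow are again from the GCOS signal unless another setting is named. Higher in both lines were 5 members, against 28% of all genes, and 9 had opposite signs. The 5 were Cdca3, Foxm1, Bub3, Hmmr and Top2a. By the brightest probe set, 38 of 47 were lower in both lines and Foxm1 alone was higher in both. At 12 h 24 of 46 members lay below both earlier times in both lines, against 13.4% of all genes. Lower by at least 0.32 in both lines were 3 members, Ccnb1, Aurkb and Kif22, against 2.99% of all genes and 0.369% of bright genes. Of these 3, Ccnb1 alone was above 300 on all arrays. By the brightest probe set the 3 were Ccnb1, Cdca3 and Spc25, and in the second summary Kif22 was the only one.

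Across all probe sets of the group, 80 of the 96 above the floor on all 6 arrays were lower at 12 h on the mean of both lines, with a median log2 difference of -0.14. In the second summary 80 of 97 were lower, with a median of -0.18. Of the 30 genes with more than 1 such probe set, 16 had all of them lower, 0 had all of them higher, and 14 had probe sets that differed in sign. The 14 were Bub1, Bub3, Cdca3, Foxm1, Hmmr, Incenp, Kif2c, Nek2, Pttg1, Smc2, Smc4, Spc25, Top2a and Tpx2. Values given below for 1 probe set of such a gene do not hold for all of its probe sets.

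The fit with line and time gave the 12 h difference common to both lines. Of 46 members, 40 were lower, with a median of -0.13, against 49.4% of the 13541 genes tested and a median of 0.00 over all genes. No member passed limma's test at an adjusted p of 0.05, in either direction. Over all genes 1 was called higher (0.00738%) and 0 lower (0%). The smallest adjusted p among the members was 0.204, for Ccnb1, and 15 of 46 members had an unadjusted p under 0.05, all of them lower, against 1112 of all 13541 genes, 497 of them lower. In the second summary 40 of 45 members were lower, with a median of -0.20, against 56.6% of 12215 genes and a median of -0.02, and again 0 were called, with 24 at an unadjusted p under 0.05, against 1617 of all genes. By the brightest probe set 45 of 47 were lower, with a median of -0.18, against 49.5% of 13870 genes, and 0 were called, with 19 at an unadjusted p under 0.05, against 1170 of all genes.

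**Figure D2:**
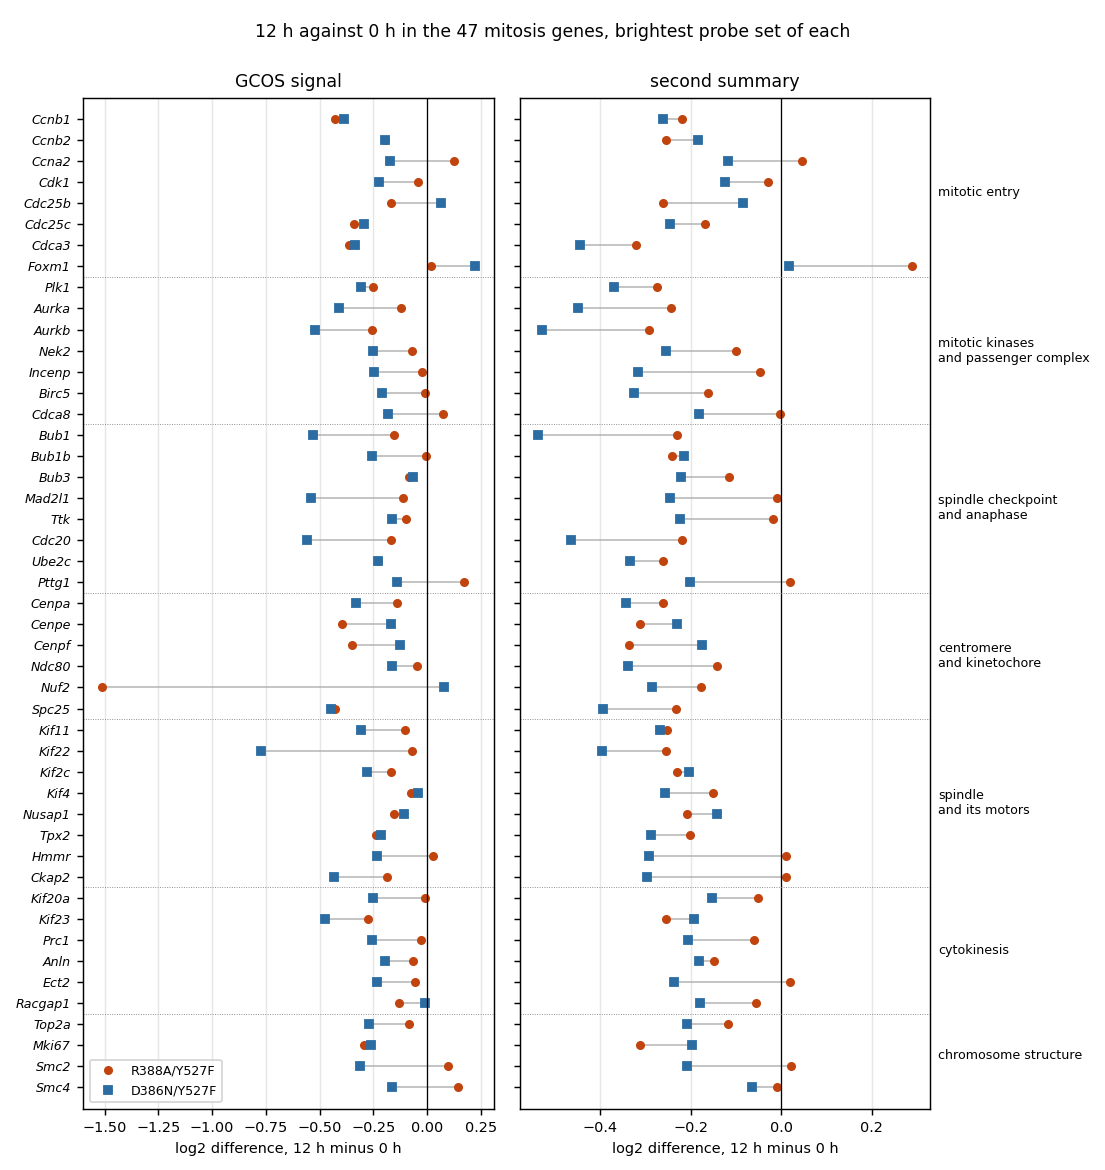
Log2 difference between 12 h and 0 h for the 47 mitosis genes by the brightest probe set, grouped by role. Circles are R388A/Y527F and squares D386N/Y527F, 1 array against 1 array each; the left panel is the GCOS signal and the right panel the second summary, on separate x scales. Most points lie left of 0, and the circle of Nuf2 at -1.51 in the GCOS panel is at -0.18 in the second summary.

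**Figure D3:**
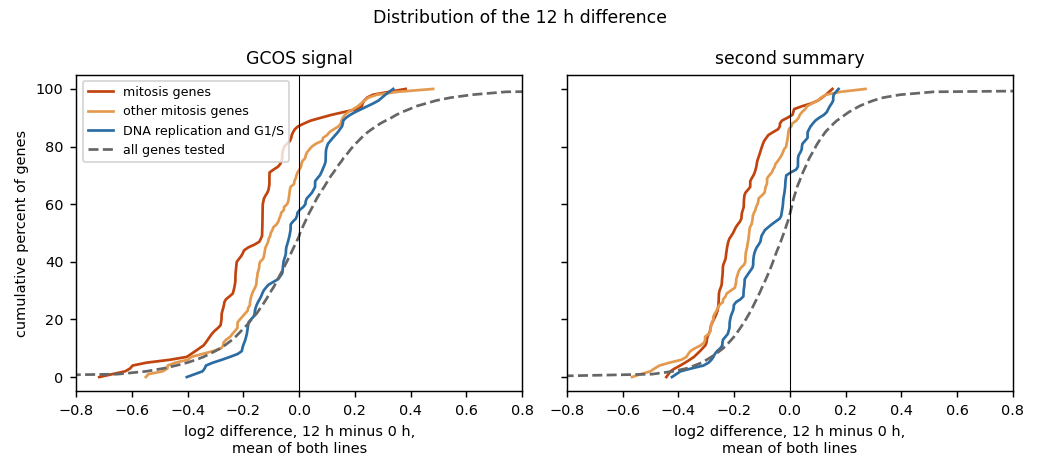
Cumulative percent of genes against the log2 difference of 12 h minus 0 h common to both lines. Lines are the 46 mitosis genes tested, 89 other mitosis genes, 48 genes of DNA replication and G1/S, and all 13541 genes in the GCOS signal (left), and 45, 86, 48 and 12215 in the second summary (right). The mitosis curve is left of that of all genes at most levels, and crosses 0 at 87.0% in the GCOS signal and 88.9% in the second summary.

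Among the genes of mitotic entry, 6 of 8 were lower at 12 h in the common difference and 3 of 8 in both lines separately. Ccnb1, which encodes cyclin B1, had signals of 790.5, 742.4 and 587.8 at 0, 1 and 12 h in R388A/Y527F, against 931.4, 871.0 and 711.3 in D386N/Y527F. The 12 h array was the lowest of its line in both lines. The common 12 h difference was -0.41 (SE 0.09), and at 0.74 and 0.76 of the 0 h signal the R388A/Y527F and D386N/Y527F lines were close. Ccnb2, for cyclin B2, had 1457.9, 1522.1 and 1272.8 in R388A/Y527F, against 2148.5, 2033.2 and 1876.8 in D386N/Y527F. Every R388A/Y527F array was below every D386N/Y527F array. Cdk1, the kinase that the B cyclins activate, had 2905.8, 3026.4 and 2824.6 in R388A/Y527F, against 3548.6, 3465.0 and 3034.5 in D386N/Y527F. Its arrays did not overlap between the lines either, although the highest of R388A/Y527F and the lowest of D386N/Y527F were nearly equal.

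Ccna2, for cyclin A2, which acts in S phase and G2, did not follow the B cyclins in R388A/Y527F by the probe set used. Its signals were 1787.6, 1893.9 and 1946.0 in R388A/Y527F, against 2039.8, 1993.3 and 1808.4 in D386N/Y527F. The 12 h array was the highest in R388A/Y527F and the lowest in D386N/Y527F. On the mean of both lines, the 2 Ccna2 probe sets were lower at 12 h, at -0.03 and -0.14. Foxm1, a transcription factor for G2/M genes, had 450.6, 350.2 and 455.8 in R388A/Y527F, against 386.4, 422.3 and 450.9 in D386N/Y527F. Its common 12 h difference was 0.12 (SE 0.12), and the mean over its probe sets turned to -0.0053. Cdca3, a substrate adaptor for mitotic entry, was tested by a probe set near the floor. Its brightest probe set had 1101.4, 1207.9 and 855.3 in R388A/Y527F, against 1509.7, 1354.0 and 1196.4 in D386N/Y527F, and was lowest at 12 h in both lines.

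All 7 mitotic kinases and members of the chromosomal passenger complex were lower at 12 h in the common difference, and 6 of 7 in both lines. In the second summary 6 of 7 were lower in the common difference. Plk1, the Polo-like kinase, had 813.5, 732.0 and 683.1 in R388A/Y527F, against 934.0, 878.1 and 755.6 in D386N/Y527F. In both lines its signals descended with time, and at each time R388A/Y527F was the lower. Aurkb, the Aurora kinase of the passenger complex, had 262.3, 202.8 and 203.2 in R388A/Y527F, against 314.0, 275.8 and 173.1 in D386N/Y527F. A brighter Aurkb probe set had 622.0, 660.3 and 520.2 in R388A/Y527F, against 800.2, 653.0 and 557.2 in D386N/Y527F. Both probe sets were lower at 12 h than at 0 h in both lines, by more in D386N/Y527F. The common difference was -0.61 (SE 0.17) by the dimmer Aurkb probe set and -0.39 by the brighter one. Aurka, a centrosomal Aurora kinase, had 812.0, 804.0 and 745.6 in R388A/Y527F, against 979.3, 843.4 and 736.3 in D386N/Y527F. Birc5, for survivin of the passenger complex, had 2401.5, 2617.3 and 2384.2 in R388A/Y527F, against 2442.4, 2443.7 and 2107.8 in D386N/Y527F, with a 12 h difference of -0.01 in R388A/Y527F and -0.21 in D386N/Y527F.

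For the spindle checkpoint and the start of anaphase, 7 of 8 genes were lower at 12 h in the common difference. Bub1, a checkpoint kinase, had 654.4, 603.0 and 588.2 in R388A/Y527F, against 724.0, 600.7 and 501.8 in D386N/Y527F. Mad2l1, which inhibits Cdc20, had 1131.9, 1281.6 and 1046.8 in R388A/Y527F, against 1170.1, 1009.1 and 805.6 in D386N/Y527F. Cdc20, an activator of the anaphase-promoting complex, had 1552.2, 1649.2 and 1490.2 in R388A/Y527F, against 1792.5, 1677.4 and 1352.4 in D386N/Y527F. In these 3 genes the 12 h difference was small in R388A/Y527F, at -0.15, -0.11 and -0.06, and -0.53, -0.54 and -0.41 in D386N/Y527F, and limma called none of these differences between the lines. Ube2c, the ubiquitin-conjugating enzyme of the same complex, had 1851.1, 1732.3 and 1577.1 in R388A/Y527F, against 2339.9, 2119.5 and 1999.6 in D386N/Y527F, and its 12 h difference was -0.23 in each line. Pttg1, for securin, was tested by a dim probe set, and its brightest one had 4211.1, 5110.8 and 4732.9 in R388A/Y527F, against 4095.1, 4001.6 and 3718.8 in D386N/Y527F, the brightest of the group.

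At the centromere and kinetochore, 4 of 5 tested genes were lower at 12 h. Cenpe, a kinetochore motor, had 451.6, 440.5 and 342.8 in R388A/Y527F, against 422.2, 422.6 and 376.0 in D386N/Y527F. Cenpa, the histone of the centromere, is read only from its bright probe set, with 1404.2, 1506.9 and 1273.8 in R388A/Y527F, against 1571.8, 1421.0 and 1248.3 in D386N/Y527F. In both genes the 12 h array was the lowest of each line. Nuf2, a microtubule-binding subunit of the Ndc80 complex, had 494.8, 309.9 and 173.6 in R388A/Y527F, against 224.8, 423.3 and 237.0 in D386N/Y527F. It was the only member with a difference of at least 2-fold between single arrays at 12 h against 0 h. The second summary did not share that spread, since the 12 h difference of Nuf2 was -0.18 in R388A/Y527F and -0.28 in D386N/Y527F there. Spc25, of the same complex, was tested by a probe set just above the floor. Its bright one had 628.1, 666.3 and 466.6 in R388A/Y527F, against 665.9, 631.8 and 489.0 in D386N/Y527F, with a 12 h difference of -0.43 and -0.45.

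Among the spindle proteins and motors, 7 of 8 were lower at 12 h in the common difference and 7 of 8 in both lines. Kif22, a chromosome-bound kinesin, had 136.5, 122.6 and 89.2 in R388A/Y527F, against 175.9, 152.5 and 118.2 in D386N/Y527F. Its brightest probe set had 822.4, 699.5 and 784.1 in R388A/Y527F, against 1441.9, 1030.8 and 844.4 in D386N/Y527F, so the Kif22 probe sets differed on whether R388A/Y527F was much lower at 12 h. Ckap2, a microtubule-associated protein, had 755.4, 723.6 and 664.2 in R388A/Y527F, against 888.9, 749.8 and 658.4 in D386N/Y527F. Kif11, which pushes the spindle poles apart, had 512.5, 490.9 and 477.0 in R388A/Y527F, against 602.6, 606.4 and 486.4 in D386N/Y527F. In the GCOS signal both had their lowest signal at 12 h in each line. The second summary gave the same for Kif11 but not for Ckap2. There Ckap2 had 844.5, 767.8 and 851.1 in R388A/Y527F, so that its 12 h array was the highest.

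All 6 cytokinesis genes were lower at 12 h in both lines in the GCOS signal, and 5 of 6 in the second summary. Some of these GCOS differences were close to none, at -0.01 for Kif20a in R388A/Y527F and -0.01 for Racgap1 in D386N/Y527F. Kif20a, a kinesin of the central spindle, had 501.6, 604.0 and 498.2 in R388A/Y527F, against 640.0, 507.8 and 536.6 in D386N/Y527F. Kif23, the kinesin of the centralspindlin complex, had 556.1, 816.9 and 460.1 in R388A/Y527F, against 771.0, 606.3 and 554.6 in D386N/Y527F. In both genes the 1 h array was the highest in R388A/Y527F and not in D386N/Y527F. Prc1, which bundles midzone microtubules, had 822.6, 719.9 and 794.8 in R388A/Y527F, against 725.8, 715.4 and 547.0 in D386N/Y527F, where the 12 h array stood below the others.

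In chromosome structure, Mki67, for the proliferation antigen Ki-67, had 1410.1, 1505.1 and 1149.0 in R388A/Y527F, against 1686.2, 1616.5 and 1407.5 in D386N/Y527F. The 12 h array was the lowest in both lines, at -0.30 and -0.26 from 0 h. Top2a, for the topoisomerase that untangles sister chromatids, was tested by a dim probe set, with a common 12 h difference of 0.25. The bright Top2a probe set had 3004.0, 3085.9 and 2834.0 in R388A/Y527F, against 3019.0, 2624.1 and 2505.9 in D386N/Y527F, a common difference of -0.18. Smc2 and Smc4 encode condensin subunits. Smc2 had 1489.5, 1499.1 and 1594.7 in R388A/Y527F, against 1426.6, 1355.4 and 1148.9 in D386N/Y527F, and Smc4 had 2522.3, 3454.1 and 2784.0 in R388A/Y527F, against 3195.5, 2726.9 and 2849.1 in D386N/Y527F. At 12 h Smc2 was at its highest in R388A/Y527F and at its lowest in D386N/Y527F.

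**Figure D4:**
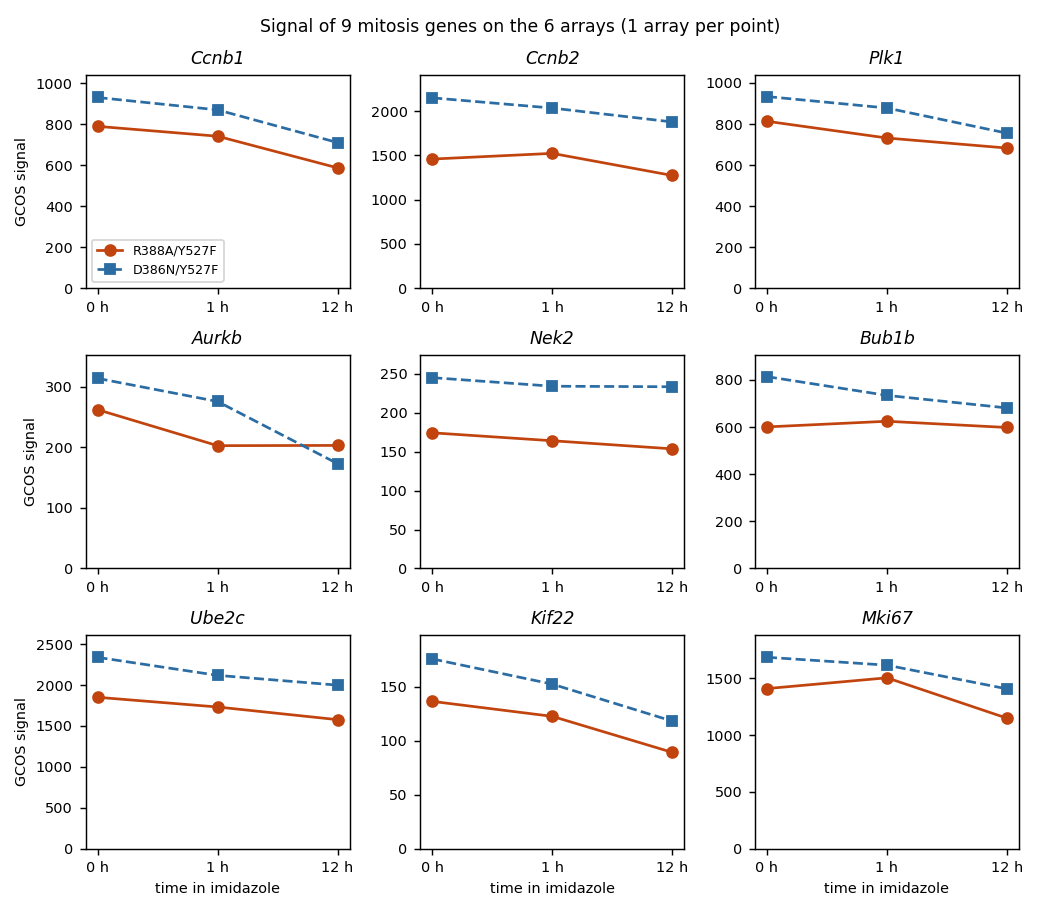
GCOS signal of 9 mitosis genes at 0, 1 and 12 h, with circles and solid lines for R388A/Y527F and squares and dashed lines for D386N/Y527F, 1 array per point and axes from 0. In Ccnb2, Nek2, Bub1b and Ube2c every R388A/Y527F point is below every D386N/Y527F point. In 8 of the 9 genes the 12 h point is the lowest of its line in both lines. The exception is Aurkb, at 203.2 at 12 h and 202.8 at 1 h in R388A/Y527F. The 9 genes were picked for display and do not stand for the group. Among all members tested the 12 h array was the lowest in both lines in 24 of 46, against 13.4% of all genes.

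At 1 h in imidazole no member passed the test. In the common difference 32 of 46 members were lower than at 0 h, with a median of -0.03, against 51.5% of all genes and a median of 0.00. With the second summary 38 of 45 were lower, with a median of -0.08, against 66.1% of all genes and a median of -0.05. limma called 0 members and 0 of all 13541 genes (0%) in either direction, while 3 members and 531 of all genes had an unadjusted p under 0.05.

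The next question was whether the 12 h difference was unlike in the R388A/Y527F and D386N/Y527F lines. The lines are separate populations of cells and the arrays do not measure kinase activity. A difference of the changes between the lines therefore could not be assigned to a restored kinase. limma called 0 members and 0 of all genes (0%) in either direction, with 2 members at an unadjusted p under 0.05 and 685 of all genes. The median difference was -0.02 over the 46 members, as over all genes, and 21 members were positive, against 6405 of all 13541 genes. A positive value means a smaller decrease or a larger increase from the earlier arrays in R388A/Y527F than in D386N/Y527F. In the second summary the median was 0.09 over 45 members and 0.04 over all genes, and 33 members were positive, against 7438 of all 12215 genes. By the brightest probe set 29 of 47 were positive, against 6657 of all 13870 genes. In the GCOS signal Aurkb had the most positive value, 0.58 (SE 0.28), and Nuf2 the most negative, -0.79 (SE 0.66). Neither held, since Aurkb was at 0.18 in the second summary and 0.07 by its brighter probe set. Nuf2 turned to 0.17 in the second summary. The most positive value was 0.57 for Foxm1 in the second summary and 0.58 for Kif22 by the brightest probe set. Here the early arrays (0 h and 1 h) count as a pair of samples in each line. In simulated data it recovered 36.5% of genes with a difference of 1 and 0.5% with a difference of 0.5 on the log2 scale, so this fit had little power for differences of 0.5 or less.

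The lines also differed from each other at every time for some members. At 0 h 34 of 46 members were lower in R388A/Y527F than in D386N/Y527F, with a median of -0.15, against 47.7% of all 13288 genes. Lower by at least 0.32 on the log2 scale were 11 of 46, against 19.6% of all genes, and 7 of the 35 bright members, against 15.4% of bright genes. At 12 h 24 of 46 were lower, with a median of -0.03, against 54.1% of all genes, a share near that of all genes.

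Over the 3 times together, 5 of 46 members were lower in R388A/Y527F by limma's test at an adjusted p of 0.05, and 0 were higher. That share of lower genes equals the background, since 10.9% of all genes tested were called lower and 9.24% higher. No line has true replicates, and the arrays at its 3 times serve as such here. Nek2, a centrosomal kinase, had 174.3, 164.1 and 153.7 in R388A/Y527F, against 245.2, 234.2 and 233.5 in D386N/Y527F, a log2 difference of -0.54 (SE 0.11, adjusted p = 0.0094). Ccnb2 differed by -0.51 (SE 0.08, adjusted p = 0.0022) and Ube2c by -0.32 (SE 0.08, adjusted p = 0.017). Bub1b, for the checkpoint protein BubR1, had 600.5, 624.5 and 598.1 in R388A/Y527F, against 813.9, 734.3 and 681.1 in D386N/Y527F, a difference of -0.29 (SE 0.08, adjusted p = 0.033). Ccnb1 differed by -0.25 (SE 0.07, adjusted p = 0.035). For these 5 genes R388A/Y527F was lower at each of the 3 times, and in all but Ccnb1 the arrays of the lines did not overlap.

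Fewer of these calls remained when a time was left out. Without the 0 h arrays Ccnb2 was the only one of the 5 still called, likewise without the 1 h arrays, and without the 12 h arrays none was called. Without the 0 h arrays Mad2l1 was called higher in R388A/Y527F. Leaving out a time leaves 1 residual degree of freedom, and the share of all genes called in these fits is not given here. The loss of calls therefore cannot be read as particular to these genes. The bright Nek2 probe set had 475.8, 463.9 and 453.6 in R388A/Y527F, against 687.8, 654.8 and 578.1 in D386N/Y527F, a difference of -0.46 (limma adjusted p = 0.0033).

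In the second summary limma called 15 of 45 members lower and 1 higher, against 19.8% lower and 14% higher of all genes. The 15 included the same 5 genes. The others were Cdk1 (-0.23), Cdc25c (-0.34), Plk1 (-0.27), Kif11 (-0.23), Nusap1 (-0.30), Tpx2 (-0.28), Kif23 (-0.19), Ect2 (-0.32), Mki67 (-0.27) and Smc4 (-0.22). Nusap1 and Tpx2 act on spindle microtubules, and Ect2 activates RhoA for the cleavage furrow. In the GCOS signal the line differences of these 10 genes ran between -0.22 and 0.11, and the positive one was Cdc25c, a phosphatase that activates Cdk1. The gene called higher was Smc2, at 0.33 (SE 0.08, adjusted p = 0.025), against 0.23 in the GCOS signal, where it was not called. By the brightest probe set limma called 7 of 47 members lower and 0 higher, against 1599 lower and 1389 higher of all 13870 genes. The 7 included Kif22 (-0.49, adjusted p = 0.018) and Cdca3 (-0.37, adjusted p = 0.015).

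Without any test, 8 of 46 members had all 3 R388A/Y527F arrays below all 3 D386N/Y527F arrays, against 19.1% of all genes. They were Bub1b, Ccnb2, Cdk1, Ect2, Nek2, Nusap1, Racgap1 and Ube2c, and 7 of the 8, all but Racgap1, did so in both summaries. In the second summary 13 of 45 members had all 3 below, against 25.5% of all genes. Smc2 alone had all 3 above, against 16.9% of all genes. By the brightest probe set 4 of 47 members did, Hmmr, Prc1, Pttg1 and Smc2, against 17.5% of all genes. With that probe set 9 had all 3 below, against 19.4% of all genes, a share near that of all genes.

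**Figure D5:**
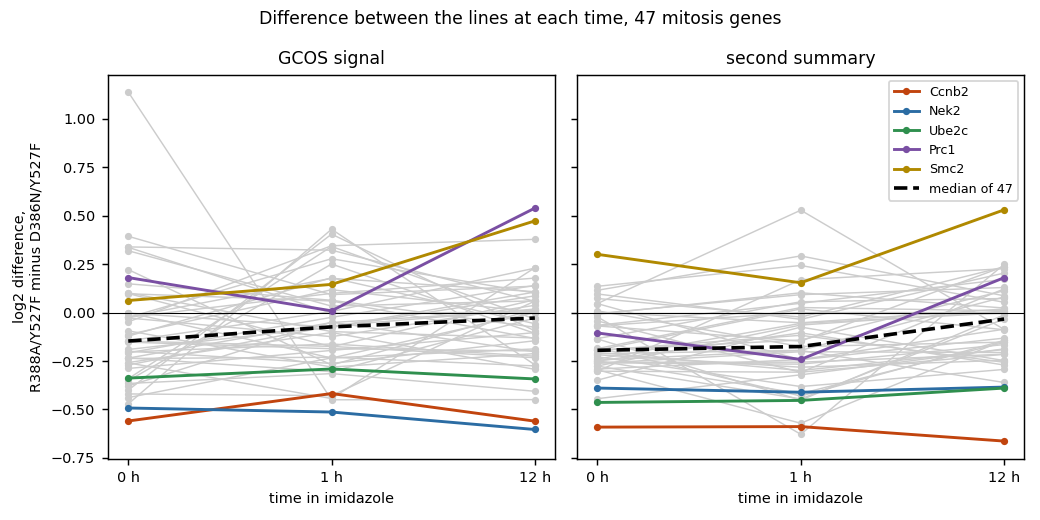
Log2 difference of R388A/Y527F minus D386N/Y527F at 0, 1 and 12 h in the GCOS signal (left) and the second summary (right), 1 grey line per mitosis gene, with 5 genes in colour and the median of the 47 as a dashed black line. Ccnb2, Nek2 and Ube2c stay below 0 at all times, Smc2 stays above 0, and the median lies closer to 0 at 12 h than at 0 h in both panels.

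Other genes of the cell cycle were read from lists. Of 89 other mitosis genes tested, limma called 13 lower and 4 higher in R388A/Y527F, and of 48 genes of DNA replication and G1/S it called 3 lower and 10 higher, beside the 10.9% lower and 9.24% higher of all genes. The lower mitosis genes included Psrc1, of spindle microtubules, at -0.82, Kifc1, a minus-end motor, at -0.55, and Pkmyt1, a kinase that inhibits Cdk1, at -0.46. The higher replication genes included Cdc6, a licensing factor, at 0.91, Pold2, of DNA polymerase delta, at 0.54, Orc6, of the origin recognition complex, at 0.51 and Tk1, thymidine kinase, at 0.47. Of 14 CDK inhibitors and pocket proteins with their partners, 4 were lower and 4 higher, among them Cdkn1b, for p27, at -0.68 and Cdkn2b, for p15, at 1.33. At 12 h limma called 0 genes of any of these lists, with 11 of 89, 4 of 48 and 3 of 14 at an unadjusted p under 0.05, beside 1112 of all 13541 genes. Lower in both lines at 12 h were 38 of 87 other mitosis genes and 15 of 48 replication genes, beside 27.2% of all genes. Median 12 h differences common to both lines were -0.10 and -0.03.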

How the data were processed

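Total RNA of 6 samples was labelled after 1 round of amplification and hybridised to Affymetrix Murine Genome 430 2.0 arrays, per the labels. The authors deposited GCOS signal, a linear intensity, made with GCOS 1.3 per the submitters' processing notes, and a second intensity summary of the same arrays whose method is not given in the sources used here. The GCOS values in both deposited files differed in 0 cells, and 0 sample columns were left unmapped. Scaling to 1 trimmed mean per array hides any change in total RNA. The number of arrays, 1 per group, limits the precision.

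Signals under the 40th percentile of all signals (20.4, or 11.3 in the second summary) were set to that floor before log2. A gene entered the fits when 2 or more arrays lay above the floor, which 13541 genes met. The fits used limma (version 3.58.1, R version 4.3.3) on log2 values, with a variance trend, Benjamini-Hochberg adjustment at 0.05 and 2 residual degrees of freedom. One model had line and time, and the other had line, 12 h against earlier, and their interaction. Tested on simulated data in which 200 genes were given a log2 difference of 1, the fits recovered 86.5% for the line, 72.5% for 12 h, 73% for 1 h and 36.5% for the interaction, and with 0.5 they recovered 45.5%, 27%, 33.5% and 0.5%. With a change of 1 they also called 10, 10, 8 and 4 unchanged genes.

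The probe set of a gene was taken by suffix and then by mean signal. Named members were 12 fixed genes, the 8 with the largest line, 12 h and interaction values, those past 2-fold on single arrays, and those whose probe sets differed in sign. Others are named beside a count and were chosen after their values were seen. The members and lists were chosen with earlier results of these data known. Alternatives were the second summary, quantile normalization, a floor at the 60th percentile, a pseudocount of 16, the mean over probe sets, no filter, no variance trend and leaving out each time, and, added after the data were seen, the brightest probe set and bright genes as background.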

Additional observations from a re-analysis of the deposited data

Results flagged for a closer look

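At 1 h Nuf2 and Kif23 moved in opposite directions in the 2 lines. For Nuf2 the log2 difference from 0 h was -0.68 in R388A/Y527F and 0.91 in D386N/Y527F, a gap of -1.59 between the lines. In the second summary the Nuf2 values were -0.09 and 0.04. For Kif23 it was 0.55 in R388A/Y527F and -0.35 in D386N/Y527F, a gap of 0.90, while the second summary gave -0.06 and -0.14. With 1 array per group, neither difference was tested.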

How the results depend on the processing

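No paired analysis by replicate was possible because the labels give no replicate numbers and each group has 1 array, and the fit with line and time compares the lines within each time. The count of members called lower in R388A/Y527F over the 3 times, 5 as reported, was 15 in the second summary, 8 after quantile normalization, 1 without a variance trend, 1 without the 0 h arrays, 1 without the 1 h arrays, 0 without the 12 h arrays and 0 without a filter on low values. The share of all genes called lower moved as well, from 10.9% as reported to 19.8% in the second summary. For the other settings that share is not given here, so these counts do not describe the mitosis genes alone. Members called higher, 0 as reported, were 1 in the second summary (Smc2) and 1 without the 0 h arrays (Mad2l1). Without a filter 1 member, Cdca3, was called lower in the difference of the 12 h changes, by a probe set near the floor. Leaving out a time leaves 1 residual degree of freedom. The difference between lines of Prc1 turned to -0.056 in the second summary. The 12 h difference turned to -0.0053 for Foxm1 with the mean of its probe sets, and for Top2a to -0.16 in the second summary and -0.18 with the brightest probe set. The difference of changes turned to 0.17 for Nuf2 in the second summary, to 0.55 for Kif23 with 1 h and 12 h together against 0 h, and to -0.064 for Spc25 with the brightest probe set. The cause was not tested. Of the remaining values for whole comparisons, 110 kept their side of the threshold or stayed within 1.5 times. Among the values of single genes and single arrays, 422 kept their direction and their side of the threshold or moved within the spread allowed, 32 moved further, 24 lost a call, 2 gained one and 7 reversed, as given above.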
